A study of Mus musculus with 5 samples.

Results

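The genes described here move salt, acid and bicarbonate across epithelia. The 10 listed genes were Slc26a4, Atp12a, Cftr, Slc26a9, Slc12a2, Slc9a3, Ano1, Scnn1a, Scnn1b and Scnn1g. Each was represented by all probe sets (groups of short probes that read 1 transcript on the array) whose only gene symbol in the platform annotation is one of these names. The rule found 14 probe sets of 9 genes among 45037 non-control probe sets of 18193 genes. Slc26a9 has no probe set under its own symbol in that annotation and its expression was not analysed here. Of the 9 genes, 5 have a single probe set and 4 have several, which are all given.

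RNA came from the esophagus of mice 3 to 4 months old in the FVB/N background, all carrying the CC10-rtta/teton-IL-13 transgenes. In this system the reverse tetracycline transactivator rtTA is made under the promoter of the club cell protein CC10, which is active in the airways, and drives an IL-13 transgene when doxycycline is present. The 3 Dox arrays are from mice whose diet held doxycycline, and the 2 NoDox arrays are from transgenic mice on a regular diet. The controls thus carry the same transgenes, and no non-transgenic mouse fed doxycycline was analysed here, so that an effect of the drug itself and of the IL-13 it switches on cannot be told apart. The labels do not say whether each array holds 1 animal or a pool, so the spread between arrays may be in part technical.

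Fluid balance over an epithelium rests on opposed flows. The epithelial sodium channel, ENaC, is built from alpha, beta and gamma subunits (Scnn1a, Scnn1b, Scnn1g) and takes up sodium through the apical membrane. Chloride and bicarbonate leave through the cAMP-regulated channel Cftr, the calcium-activated channel Ano1 and the exchanger pendrin (Slc26a4). Chloride is supplied from the basal side by the cotransporter Slc12a2 (NKCC1). Slc9a3 (NHE3) trades sodium for protons, and Atp12a trades potassium for protons. In airway epithelium, IL-13 is known to raise pendrin and Ano1. The squamous lining of the esophagus takes up sodium slowly, and in many species submucosal glands add bicarbonate.

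Each value below is a ratio: the signal of a probe set on 1 array over its mean on the 2 NoDox arrays, so that a pair of NoDox ratios averages 1 by construction. Differences are log2 of Dox over NoDox with their standard error, and p-values are from limma, adjusted by Benjamini-Hochberg over all 45037 probe sets with a threshold of 0.05. The median difference of all probe sets was -0.08, and the median ratio of the arrays was 0.955, 0.952 and 0.926 in Dox and within 0.001 of 1 in both NoDox arrays. Of all probe sets, 0.604% passed as higher in Dox and 0.535% as lower, or 272 and 241. With every array brought to the same median the split was 314 and 152, and with constant factors between arrays taken out it was 369 and 136. The tissue label was checked by the signal level of Krt4 and Krt13, the keratins of the upper squamous layers. They ranked at percentiles 98.3 and 98.9 of all probe sets, both from levels that are lower bounds. Ratios cannot check the label, since they average 1 in NoDox by construction. Neither keratin passed the test between the groups. Krt4 had ratios of 0.986, 1.01 and 0.937 in Dox and 0.896 and 1.10 in NoDox, and Krt13 had 0.800, 0.891 and 0.915 in Dox and 0.964 and 1.04 in NoDox. In whole tissue, a change in the number of cells of a type and a change in RNA per cell cannot be told apart.

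Among the 14 probe sets, 1 was called higher in Dox, that of Scnn1g, none was called lower and 13 were not called. Without adjustment, 2 reached p under 0.05 as higher and 3 as lower, where 5.40% and 8.73% of all probe sets did. All Dox arrays lay above both NoDox arrays for 3 member probe sets and below them for 3, and the groups overlapped for 8. Over all probe sets, 12.4% lay wholly above and 19.7% wholly below. The median difference of the 14 was -0.08, with a range of -0.79 to 3.83, and 7 lay on each side of 0. The median of the members was that of all probe sets to 2 decimals, and the results below are of single genes.

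**Figure D1:**
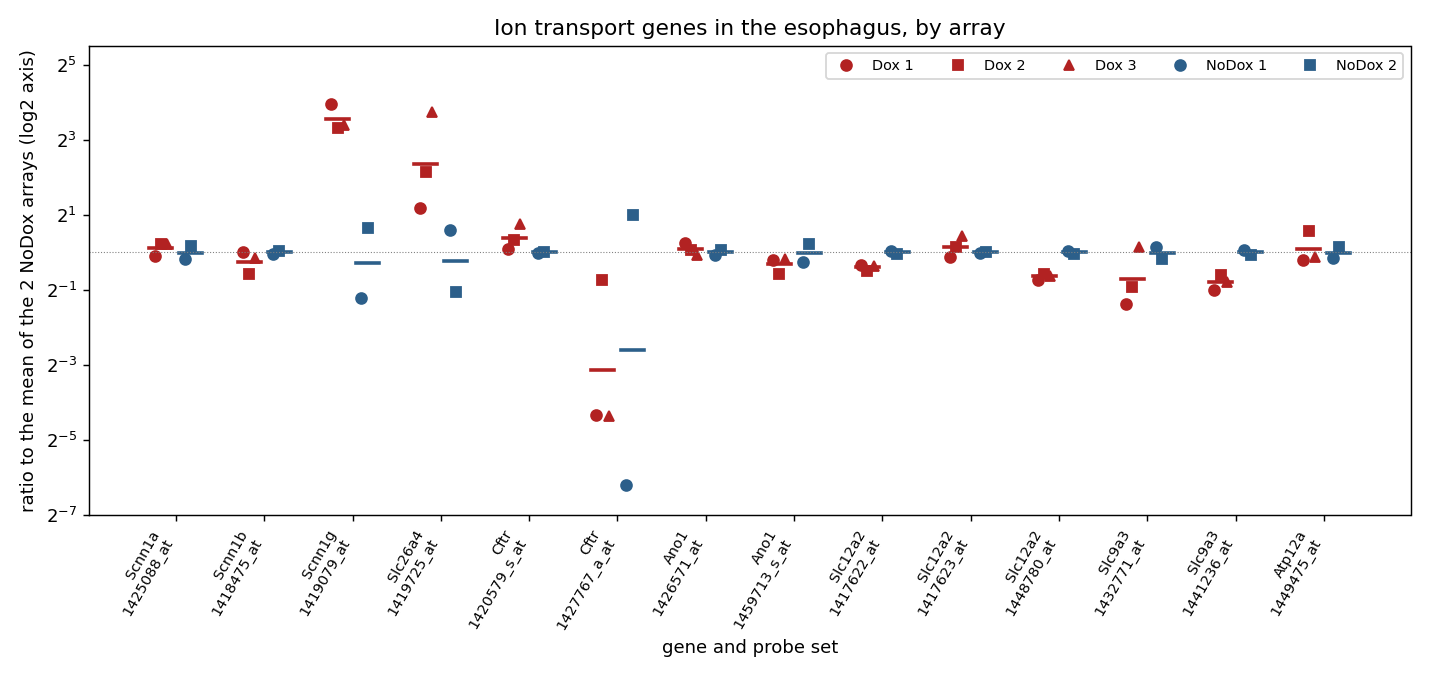
Ratio to the NoDox mean (log axis) for each of the 14 probe sets of the 9 measured genes, with 3 Dox points (red) to the left of 2 NoDox points (blue), a shape for each replicate number and a bar at the mean of the log2 ratios. Scnn1g separates from its NoDox arrays at 9.94 to 15.5 in Dox, Slc26a4 spreads from 2.26 to 13.3 in Dox, and the second Cftr probe set scatters from 0.0136 to 1.99 over both groups.

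The gene for the gamma subunit of ENaC was the member that rose. Scnn1g (probe set 1419079_at) had ratios of 15.5, 9.94 and 10.4 in Dox and 0.432 and 1.57 in NoDox. All 3 Dox arrays lay above both NoDox arrays, and the lowest Dox value, 9.94, was far above the higher NoDox value, 1.57. The means were 12.0 ± 3.06 in Dox (SD, n = 3) and 1 ± 0.803 in NoDox (SD, n = 2). The log2 difference was 3.83 ± 0.72 (SE, 95% interval 2.21 to 5.45), which is 14.2-fold with an interval of 4.62 to 43.9, at an adjusted p of 0.0439 by limma. The size depends on the low NoDox signal: with 200 or 1000 steps added to every signal the difference was 2.91 or 1.69, still past the threshold (adjusted p = 0.0413 and 0.0485). The whole-number signals behind these ratios, in steps of an unknown absolute size, were 4403, 2950 and 2961 in Dox and 116 and 416 in NoDox. The mean signal ranked at percentile 28.5 of all probe sets, a dim probe set whose fold rests on a small and uneven NoDox signal. The call was lost without any one of the 5 arrays, at adjusted p-values of 0.0611 to 0.389 and log2 differences of 2.90 to 4.76. The difference was 2.90 without NoDox replicate 1 (adjusted p = 0.389) and 4.76 without NoDox replicate 2 (0.142).

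The other ENaC subunits did not pass. Scnn1a, the pore-forming alpha subunit (1425088_at), had ratios of 0.930, 1.18 and 1.16 in Dox and 0.881 and 1.12 in NoDox, a log2 difference of 0.12 ± 0.17 (95% interval -0.25 to 0.50). Its signal was bright, at percentile 90.3, so that this interval is narrow and leaves out a 2-fold change. Scnn1b, the beta subunit (1418475_at), had ratios of 1.01, 0.668 and 0.899 in Dox and 0.969 and 1.03 in NoDox, a difference of -0.24 ± 0.24 (95% interval -0.79 to 0.30). In both genes the groups overlapped.

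The subunits were also compared within each array, which takes out any scaling of the array. Log2 of the Scnn1g ratio over the Scnn1a ratio was 4.06, 3.08 and 3.17 in Dox and -1.03 and 0.49 in NoDox, a difference of 3.71. Over Scnn1b it was 3.94, 3.90 and 3.54 in Dox and -1.17 and 0.60 in NoDox, a difference of 4.07. The quotient of Scnn1g over each partner was thus higher in every Dox array than in either NoDox array. These quotients reuse the Scnn1g values of the call above, so they are no independent support for it. Each ratio is scaled to its own NoDox mean, so the quotients do not rank the subunits by level. The two-sided exact permutation p was 0.1 for each quotient, the smallest that 3 against 2 arrays allow.

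Scnn1g and Scnn1b are neighbouring protein-coding genes on chromosome 7, between Usp31 and Cog7 in the RefSeq annotation of GRCm38.p6. Their upstream windows are set beside each other because the neighbours differed in their values, and that of Slc26a4 is added as the member with the next largest difference. Each is the 250 bases before the RefSeq transcript start, 5′ to 3′ on the gene's own strand, from RefSeq (GRCm38.p6). The windows are chr7:121734229-121734478 on the plus strand for Scnn1g, chr7:121864788-121865037 on the plus strand for Scnn1b, and chr12:31559985-31560234 on the minus strand for Slc26a4.
Scnn1g: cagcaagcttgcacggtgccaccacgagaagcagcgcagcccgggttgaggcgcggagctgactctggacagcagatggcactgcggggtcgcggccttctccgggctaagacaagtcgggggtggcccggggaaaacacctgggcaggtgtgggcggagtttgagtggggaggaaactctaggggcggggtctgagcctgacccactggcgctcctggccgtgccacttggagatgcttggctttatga
Scnn1b: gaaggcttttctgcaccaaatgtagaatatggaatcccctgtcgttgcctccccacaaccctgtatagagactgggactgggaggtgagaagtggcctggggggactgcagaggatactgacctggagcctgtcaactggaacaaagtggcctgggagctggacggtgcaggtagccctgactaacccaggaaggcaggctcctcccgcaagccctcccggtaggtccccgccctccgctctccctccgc
Slc26a4: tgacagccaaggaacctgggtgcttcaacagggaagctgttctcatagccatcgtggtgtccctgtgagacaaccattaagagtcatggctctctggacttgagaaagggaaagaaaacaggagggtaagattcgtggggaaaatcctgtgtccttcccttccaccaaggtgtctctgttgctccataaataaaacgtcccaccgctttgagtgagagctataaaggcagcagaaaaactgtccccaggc
GC content was 65.2% in the Scnn1g window, 60.8% in the Scnn1b window and 49.6% in the Slc26a4 window, against a median of 52.4% over 32851 promoter windows of the same length. The dinucleotide CG occurred 16 times upstream of Scnn1g, 7 times upstream of Scnn1b and 4 times upstream of Slc26a4, with a median of 6 over all windows. STAT6, the transcription factor that the IL-13 receptor activates, binds palindromes of the form TTCNNNNGAA, and other STAT proteins favour TTCNNNGAA. Each reads the same on both strands, and a window can hold both, since their spacers differ in length. The first form is in 5.85% of all windows and the second in 7.02%. Of the 7 members with a window in the table used here (Scnn1g, Scnn1b, Slc26a4, Slc26a9, Cftr, Ano1 and Slc9a3), 0 hold either form, so no letters are capitalised above. This says only that these letters are not in these windows.

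By the distance between the 5 log2 ratios, the genes with the profile most like that of Scnn1g were Trbv13-2, a T cell receptor beta variable segment, and 9530036O11Rik. Trbv13-2 lay at a Euclidean distance of 0.89, with ratios of 11.7, 11.7 and 9.75 in Dox and 0.700 and 1.30 in NoDox (adjusted p = 0.0495). 9530036O11Rik lay at 1.12, with ratios of 8.19, 14.6 and 8.61 in Dox and 0.475 and 1.53 in NoDox (adjusted p = 0.139). Both were picked for this likeness, which is therefore no finding.

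**Figure D2:**
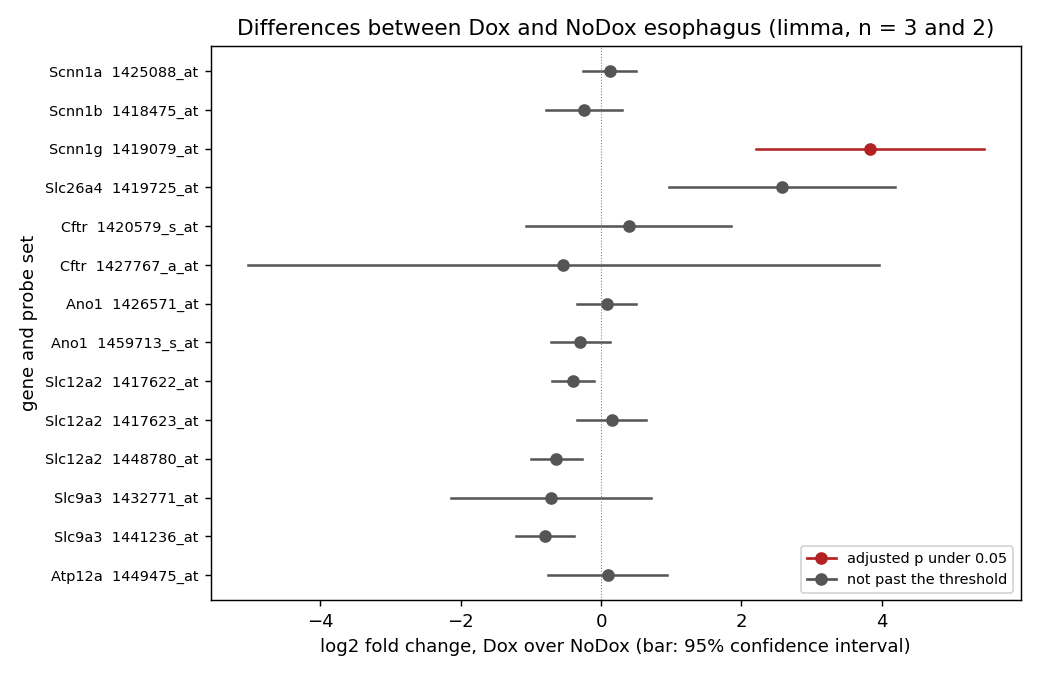
Log2 difference of Dox over NoDox for the 14 member probe sets (points) with 95% intervals from limma (bars), n = 3 Dox and 2 NoDox arrays. The Scnn1g interval runs from 2.21 to 5.45 and is the only one that passed after adjustment, while the Cftr probe set 1427767_a_at has the widest, from -5.04 to 3.96.

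Pendrin, the apical exchanger of chloride for bicarbonate and iodide, had the second largest difference and did not pass. Slc26a4 (1419725_at) had ratios of 2.26, 4.41 and 13.3 in Dox and 1.52 and 0.479 in NoDox. All Dox arrays lay above both NoDox arrays, but the arrays differed widely within each group, from 2.26 to 13.3 in Dox and from 0.479 to 1.52 in NoDox. The means were 6.66 ± 5.86 in Dox (SD, n = 3) and 1 ± 0.737 in NoDox (SD, n = 2). The log2 difference was 2.58 ± 0.72 (95% interval 0.96 to 4.20), or 5.98-fold with an interval of 1.95 to 18.3, at an unadjusted p of 0.00557 and an adjusted p of 0.146. The signals were 3515, 7151 and 20617 steps in Dox and 2232 and 694 steps in NoDox. The difference was 3.17 without Dox replicate 1, 1.89 without Dox replicate 3, 3.41 without NoDox replicate 1 and 1.75 without NoDox replicate 2, and it passed in none of these.

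Clca1 (gob-5), a secreted regulator of calcium-activated chloride current made by goblet cells, also spread widely among the Dox arrays and did not pass. Its ratios were 3.61, 7.25 and 19.2 in Dox and 0.497 and 1.50 in NoDox (log2 difference 3.20 ± 0.72, adjusted p = 0.0816).

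The apical chloride channels did not pass. Cftr has a probe set of higher signal, 1420579_s_at, with ratios of 1.06, 1.27 and 1.69 in Dox and 0.985 and 1.02 in NoDox. All Dox arrays lay above both NoDox arrays, yet the log2 difference of 0.39 ± 0.65 had an interval of -1.07 to 1.85 (adjusted p = 0.844), because the fit assigns a wide spread to dim probe sets, here at percentile 25.4. Its other probe set, 1427767_a_at, had ratios of 0.0499, 0.605 and 0.0485 in Dox and 0.0136 and 1.99 in NoDox. With signals of 31, 392 and 30 steps in Dox and 8 and 1150 steps in NoDox, at percentile 0.815, it differed more between the NoDox arrays than between the groups. Neither Cftr probe set differed by more than its interval. Ano1, the calcium-activated chloride channel of epithelia and of gut pacemaker cells, gave ratios of 0.870, 0.672 and 0.889 in Dox and 0.842 and 1.16 in NoDox on its brighter probe set, 1459713_s_at (log2 difference -0.30 ± 0.19, interval -0.72 to 0.12). On 1426571_at it gave 1.19, 1.04 and 0.946 in Dox and 0.957 and 1.04 in NoDox (0.08 ± 0.19, interval -0.35 to 0.50). The probe sets differ in sign, and neither interval reaches a 2-fold change in either direction.

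Slc12a2, the cotransporter that loads chloride into secretory cells from the basal side, had its Dox values below NoDox on 2 of 3 probe sets, with none past the threshold. On 1448780_at the ratios were 0.601, 0.677 and 0.650 in Dox and 1.02 and 0.975 in NoDox, a log2 difference of -0.64 ± 0.16 (95% interval -1.0 to -0.28, unadjusted p = 0.00315, adjusted p = 0.114). On the brightest, 1417622_at, they were 0.792, 0.707 and 0.775 in Dox and 1.02 and 0.975 in NoDox, a difference of -0.40 ± 0.13 (interval -0.70 to -0.11, adjusted p = 0.212). Dox and NoDox did not overlap on either. On 1417623_at the ratios were 0.918, 1.10 and 1.36 in Dox and 0.995 and 1.0 in NoDox, a difference of 0.15 ± 0.22 (interval -0.35 to 0.65), and the groups overlapped. The 3 probe sets cite the same source sequence in the platform annotation, so their disagreement lies within 1 gene. Within each array, log2 of the 1448780_at ratio over the 1417623_at ratio was -0.61, -0.70 and -1.06 in Dox and 0.04 and -0.04 in NoDox, a difference of -0.79 (two-sided exact permutation p = 0.1). For 1417622_at over 1417623_at it was -0.21, -0.63 and -0.81 in Dox and 0.04 and -0.04 in NoDox, a difference of -0.55 (two-sided exact permutation p = 0.2).

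Slc9a3, the apical sodium-proton exchanger of gut and kidney, had the largest negative difference among the members, again short of the threshold. Its brighter probe set, 1441236_at, had ratios of 0.504, 0.657 and 0.577 in Dox and 1.05 and 0.955 in NoDox. The groups did not overlap, and the Dox arrays sat close together. The log2 difference was -0.79 ± 0.18 (95% interval -1.21 to -0.38), or 0.576-fold, at an unadjusted p of 0.00174 and an adjusted p of 0.0869. Its signals were 8654, 11770 and 9859 steps in Dox and 16941 and 15280 steps in NoDox. Without Dox replicate 2 the difference was -0.89 at an adjusted p of 0.0488, which passes. It did not pass without any other array. The difference was -0.70 without Dox replicate 1 (adjusted p = 0.146) and -0.80 without Dox replicate 3 (0.206). Without NoDox replicate 1 or 2 it was -0.73 or -0.86. The second probe set, 1432771_at, had ratios of 0.386, 0.523 and 1.11 in Dox and 1.11 and 0.891 in NoDox (-0.71 ± 0.63, interval -2.13 to 0.71), with Dox replicate 3 among the NoDox values.

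Atp12a, the non-gastric proton-potassium pump, had ratios of 0.872, 1.49 and 0.921 in Dox and 0.898 and 1.10 in NoDox (1449475_at). The groups overlapped, with a log2 difference of 0.09 ± 0.37 (95% interval -0.75 to 0.94). As fold changes the interval runs from 0.594 to 1.91, so a moderate rise or fall is not excluded.

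The transport genes around the members were read from 11 lists of related genes, each gene counted by its probe set of highest level. Over all genes, 1.01% passed as higher in Dox and 0.731% as lower. A further list, of known IL-13 responses, had 10 of 20 genes higher and none lower, with a median log2 difference of 1.94. The 5 of smallest p were Alox15 (6.27), Chil3 (5.57), Chil4 (5.54), Fcgbp (1.95) and Il4ra (2.11), with adjusted p-values of at most 0.0057. Lists with a gene past the threshold were the carbonic anhydrases, the genes that activate and control sodium channels, and the proton pumps.

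Carbonic anhydrases make bicarbonate and protons from carbon dioxide. Of 16 measured, 3 rose, none fell and 13 did not pass (median difference 0.13). All Dox arrays lay above both NoDox arrays for 7 of them, as for 12.4% of all probe sets. Car4, a membrane-anchored form, had ratios of 5.34, 4.40 and 7.14 in Dox and 0.973 and 1.03 in NoDox (2.46 ± 0.23, 5.52-fold, adjusted p = 0.00133). Car2, the abundant cytosolic form, had 4.53, 3.65 and 3.81 in Dox and 0.928 and 1.07 in NoDox (2.00 ± 0.17, 3.99-fold, adjusted p = 0.000932). Car8, a relative that lacks the enzyme activity, had 3.16, 2.44 and 4.40 in Dox and 1.05 and 0.951 in NoDox (1.70 ± 0.28, 3.24-fold, adjusted p = 0.0262). All 3 had well separated groups. When arrays were left out 1 at a time, Car2 lost its call without NoDox replicate 1, at a difference of 1.89. Car4 lost its call without NoDox replicate 1 (2.43) or NoDox replicate 2 (2.50), and Car8 without any array but Dox replicate 2 (1.47 to 1.77). All 3 genes also lost their calls with no variance trend and with the trend on the mean log2 ratio.

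The list of sodium channel activation and control holds proteases, kinases, ubiquitin ligases and steroid receptors that act on ENaC, and the related acid-sensing channels. Among its 17 measured genes, 1 rose, 1 fell and 15 did not pass (median -0.06). Tmprss4, a membrane serine protease that can activate ENaC, had ratios of 1.71, 1.65 and 1.51 in Dox and 0.990 and 1.01 in NoDox (0.70 ± 0.13, 1.62-fold, adjusted p = 0.0467). Tsc22d3 (GILZ), a glucocorticoid-induced protein that raises ENaC at the cell surface, had 0.538, 0.386 and 0.462 in Dox and 1.02 and 0.977 in NoDox (-1.13 ± 0.17, 0.458-fold, adjusted p = 0.0173). The kinase Sgk1 (0.00, adjusted p = 0.994), the ubiquitin ligase Nedd4l (-0.06) and the protease Prss8 (-0.01, adjusted p = 0.984) showed differences near 0. The steroid receptor Nr3c1 (-0.74, adjusted p = 0.149) and the ubiquitin ligase Nedd4 (-0.49, adjusted p = 0.216) had larger differences and did not pass. In the list, 2 genes had all Dox arrays above both NoDox arrays and 4 below, where 12.4% and 19.7% of all probe sets did. Tmprss4 lost its call without any array but Dox replicate 2 (adjusted p = 0.0926 to 0.402), and Tsc22d3 without Dox replicate 3 (0.0808), NoDox replicate 1 (0.298) or NoDox replicate 2 (0.245).

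Of 22 measured genes of proton pumps and the proton channel, 1 rose and 21 did not pass (median -0.17). It was Atp6v0d2, a V-ATPase subunit of kidney intercalated cells, osteoclasts and some macrophages, with ratios of 4.72, 2.88 and 8.05 in Dox and 1.27 and 0.730 in NoDox (2.31 ± 0.42, adjusted p = 0.0399). Its call was lost without any array but Dox replicate 2 (adjusted p = 0.0869 to 0.407). Another 7 genes of the list had all Dox arrays below both NoDox arrays, as did 19.7% of all probe sets. The voltage-gated proton channel Hvcn1, with the next smallest p in that list, had a difference of 1.21 (adjusted p = 0.191).

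In the other 8 lists, 0 of 107 genes passed by limma after adjustment, while 10 reached an unadjusted p under 0.05 as higher and 9 as lower. Of all probe sets, 5.40% and 8.73% did. The chloride and bicarbonate transporters (27 measured, median -0.07) were led by Slc26a2 at -0.49 (adjusted p = 0.199) and Slc4a11 at 0.54 (0.259). Among 6 anoctamins (median -0.67), Ano9 had ratios of 0.350, 0.632 and 0.254 in Dox and 0.970 and 1.03 in NoDox (-1.38 ± 0.32, adjusted p = 0.0919), and Ano10 a difference of -0.61 ± 0.16 (0.124). The Clca regulators (7 measured, median 0.03) held Clca1, above, and Clca3b at -2.97 (adjusted p = 0.307). In the cation-chloride cotransporters and their kinases (13 measured, median -0.14), Wnk4, a kinase that sets the balance of sodium and chloride transport, had ratios of 1.77, 1.47 and 2.04 in Dox and 0.951 and 1.05 in NoDox (0.81 ± 0.17, adjusted p = 0.0623), and Oxsr1 a difference of -0.40 (0.313). The sodium-proton exchangers and scaffolds (11 measured, median -0.09) had Chp2 at 1.63 (adjusted p = 0.277) and Slc9a3r2 at 0.46 (0.306). The sodium-potassium pump genes (11 measured, median -0.17) had Fxyd6 at -0.64 (0.116) and Fxyd5 at 0.51 (0.203). The potassium channels (21 measured, median -0.12) had Kcnj8 at -0.70 (0.162) and Kcnk6 at 0.39 (0.233), and the aquaporins (11 measured, median -0.09) had Aqp3 at 0.47 (0.175) and Aqp5 at -0.81 (0.248).

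**Figure D3:**
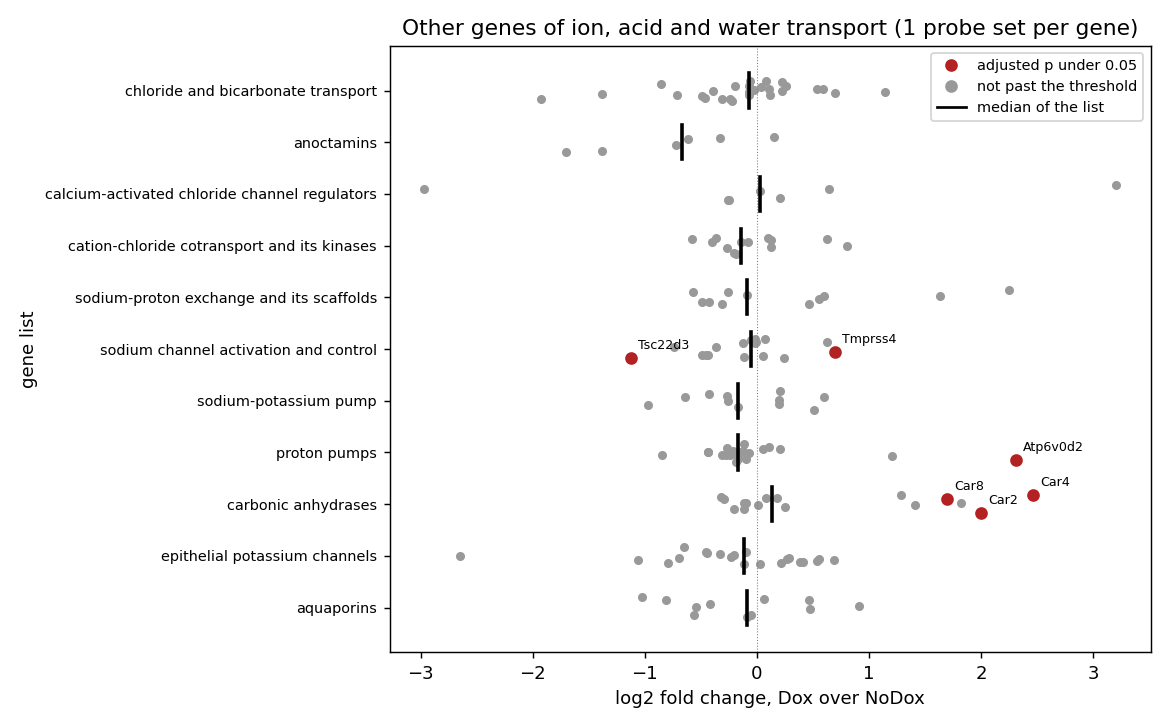
Log2 difference of Dox over NoDox for each gene of the related lists (points, by its probe set of highest level), red where past the threshold and named, with a bar at the median of each list. Carbonic anhydrases hold 3 genes that rose, Car2, Car4 and Car8, and the sodium channel list holds 1 that rose (Tmprss4) and 1 that fell (Tsc22d3).

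Several tissues other than esophageal lining express the members, and their markers were read from lists of the same kind. Of the lung alveolar markers, 6 of 9 measured rose and none fell, where 1.01% and 0.731% of all genes did. Their mean ratio was 4.20, 2.85 and 7.27 in Dox and 1.01 and 0.994 in NoDox. Sftpc, the surfactant protein of alveolar type 2 cells, had ratios of 4.69, 3.16 and 6.22 in Dox and 1.02 and 0.976 in NoDox (2.18 ± 0.25, adjusted p = 0.0057). Sftpb had a difference of 0.94 (adjusted p = 0.100). Alveolar cells are known to express ENaC subunits and Car4 is a known marker of lung capillaries. The part of these markers in the results for Car4, and for Scnn1g and the other members, was not tested.

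Ionocytes, rare cells rich in Cftr and proton pumps, had 1 of 6 measured markers higher, Atp6v0d2, where 1.01% of all genes passed as higher. The mean ratios of the list were 1.28, 1.47 and 1.90 in Dox and 0.933 and 1.07 in NoDox. The medians were 0.703, 1.32 and 0.707 in Dox and 1.12 and 0.883 in NoDox. The defining ionocyte factors Foxi1 (0.50, adjusted p = 0.887) and Ascl3 (-0.19, adjusted p = 0.907) did not pass, and the groups overlapped. Airway epithelium, where the transgene promoter is active, had none of 10 past the threshold (mean ratios of 0.676, 1.33 and 1.36 in Dox and 0.753 and 1.25 in NoDox), and its secretory marker Scgb1a1 had a difference of 0.79 (adjusted p = 0.202), while the ciliated marker Foxj1 had 0.55 (0.715). Thyroid, which expresses pendrin and lies near the esophagus, had none of 7 past the threshold, with mean ratios of 1.07, 1.59 and 0.539 in Dox and 0.952 and 1.05 in NoDox. Its defining marker Tg, the precursor of thyroid hormone, had overlapping groups and a difference of 0.08 (adjusted p = 0.984). The part of these genes in the values of Slc26a4 was not tested. Stomach had none of 10 past the threshold (0.899, 1.37 and 0.680 in Dox and 1.17 and 0.828 in NoDox). The interstitial cells of Cajal, which express Ano1, had none of 6 (1.09, 0.880 and 1.17 in Dox and 0.976 and 1.02 in NoDox). The list of these cells holds Ano1 itself, so its count and means are in part the values of that member. The defining markers were Atp4b (0.20, adjusted p = 0.838) and Gkn1 (0.47, 0.890) for stomach and Kit (0.46, 0.609) for the interstitial cells. Over the 5 marker lists with no call, 43 genes in all, 2 reached an unadjusted p under 0.05 as higher and 6 as lower. Of all probe sets, 5.40% and 8.73% did.

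Among the remaining lists, salivary and mucous glands had 1 of 10 higher and 1 lower, where 1.01% and 0.731% of all genes passed. The mean ratio of the gland list was 8.67 in Dox replicate 1 against 2.20 and 2.42 in the other Dox arrays, and 0.846 and 1.15 in NoDox. That mean rests on Mucl2, a mucin-like gland gene, with ratios of 70.8, 1.77 and 4.46 in Dox and 0.436 and 1.56 in NoDox. Dox replicate 1 is also where Scnn1g was highest, and the part of these genes in that value was not tested. Skeletal muscle had 3 of 10 lower and none higher (0.616, 0.475 and 0.572 in Dox and 1.02 and 0.984 in NoDox). Smooth muscle had none of 10 past the threshold (0.717, 0.814 and 0.880 in Dox and 0.969 and 1.03 in NoDox). All Dox arrays lay below both NoDox arrays for 7 skeletal and 6 smooth muscle genes, where 19.7% of all probe sets did. By limma without adjustment, 6 skeletal and 3 smooth muscle genes reached p under 0.05 as lower, where 8.73% of all probe sets did. The part of muscle content in the values of Slc12a2 and Slc9a3 was not tested. The defining muscle markers were Myh11 (-0.71, adjusted p = 0.128) and Cnn1 (-0.79, 0.0841) for smooth muscle and Ckm (-0.15, 0.691) and Acta1 (-0.08, 0.860) for skeletal muscle, and those of the glands were Smr2 (-0.06, 0.932) and Dcpp1 (-0.92, 0.892). The mast cell list, with the defining markers Cpa3 (-0.37, 0.590) and Tpsb2 (0.24, 0.751), had 1 of 10 higher, Hdc. Its mean ratios were 2.35, 1.59 and 2.42 in Dox and 0.961 and 1.04 in NoDox. The medians were 1.47, 1.12 and 0.742 in Dox and 0.941 and 1.06 in NoDox. The squamous list had 1 of 9 higher, Krt6a, and 1 lower, Dsg1a. Its mean ratios were 1.25, 1.23 and 1.13 in Dox and 0.980 and 1.02 in NoDox. Those means are raised by Krt6a, with ratios of 3.53, 3.48 and 3.41 in Dox. The squamous medians were 0.986, 0.891 and 0.866 in Dox and 0.954 and 1.05 in NoDox.

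**Figure D4:**
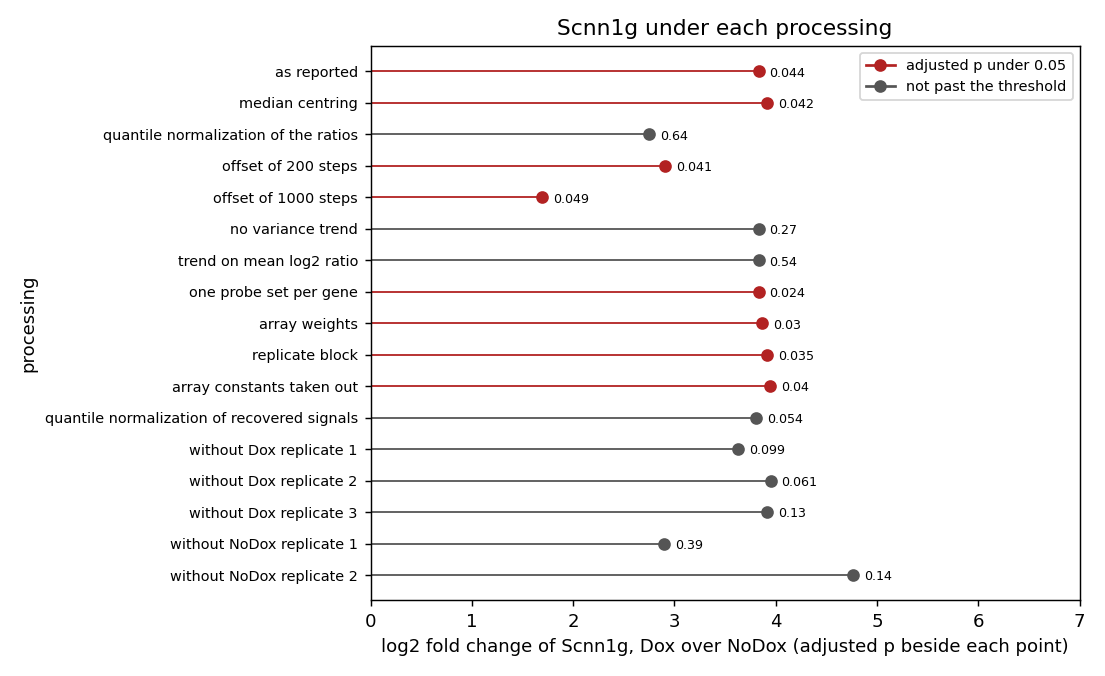
Log2 difference of Scnn1g, Dox over NoDox (horizontal axis), as reported (top) and under each alternative processing. Each point is a fitted difference with its adjusted p beside it, red where that is under 0.05. The difference lies between 1.69 and 4.76 in the alternatives that give it a value, and it passes in 7 of 17 of them, the stricter threshold of 0.01, which is not drawn, included.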

How the data were processed

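Total RNA from 5 esophagus samples was biotin-labelled and hybridised to Mouse Genome 430 2.0 arrays, per the labels. Signals came from MAS 5.0 and were normalized in GeneSpring 7.3.1, per the labels. The labels speak of pair-wise normalization to controls, but in the deposited table each value is a linear ratio to the mean of both NoDox arrays: their ratios sum to 2 in 45099 of 45101 probe sets. Detection calls and signals were not used here. Since the authors' software wrote signals in whole steps, signals were recovered from the deposited ratios, after 1 constant factor per array, for 40018 of 45098 probe sets (88.7%, relative tolerance 3e-07, up to 50000 steps). Shuffled ratios gave 0.2%, and in simulated data 96.3% came out exact and 3.67% off by a whole divisor. Where none was found, the level is a lower bound. Levels entered the variance trend, the rank of brightness, the choice of 1 probe set per gene and the alternatives that use signals.

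Log2 ratios of 45037 probe sets, 64 controls left out, were fitted with limma 3.58.1 (R 4.3.3, lmFit, eBayes with a trend on level), 3 Dox against 2 NoDox, two-sided, with Benjamini-Hochberg adjustment. The test was checked on simulated data. Of these probe sets, 34945 carry 1 symbol, 932 several and 9160 none, and only those with 1 symbol were named. Genes were counted by their probe set of highest level. Named are all members, and genes of each related list past the threshold (at most 5, otherwise the 2 of smallest p). The defining markers and the 2 nearest profiles to a called member are named as well. Mucl2, Sgk1, Nedd4l, Prss8, Nr3c1, Nedd4 and the genes of marker lists named besides the defining markers were added after their values were seen. The members, lists and tests were chosen with earlier results of these data known. No date or batch is given here, and depth does not apply to arrays, whose number limits the precision.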

Additional observations from a re-analysis of the deposited data

How the results depend on the processing

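Scnn1g remained the 1 member called higher under median centring, offsets of 200 and 1000 steps, 1 probe set per gene, array weights and array constants taken out, and its log2 difference lay between 1.69 and 4.76 in the alternatives that give it a value. The number called higher was 0 at an adjusted p of 0.01, with quantile normalization of the ratios (Scnn1g 2.75, adjusted p = 0.642), with no variance trend (0.267), with the trend on the mean log2 ratio (0.537) and with quantile normalization of recovered signals (0.0539). It was also 0 with the probe sets under the median level left out, which leaves out Scnn1g itself. The cause of the other losses was not tested. Leaving out each array in turn gave 0 to 0 called higher and 0 to 1 called lower. The 1 called lower was Slc9a3, without Dox replicate 2 and, at -0.82 and an adjusted p of 0.0451, with array weights. The other members were called in no alternative, and the sign of the difference changed for Cftr 1427767_a_at in 4 alternatives, Atp12a in 2, and Ano1 1426571_at and Scnn1a in 1 each. Among related genes, Car2 passed in 15 of 18 alternatives, Car4 in 14, Tsc22d3 in 11, Car8 and Tmprss4 in 10, Atp6v0d2 in 9 and Wnk4 in 6, with no change of sign. Clca1 passed in 1 of 17, the replicate block (2.57, adjusted p = 0.0140). Of all probe sets, 272 higher and 241 lower became 89 and 31 at 0.01, 64 and 17 with quantile ratios, 314 and 116 with quantile signals, 410 and 492 without those under the median level, 6 and 0 with no trend, 0 and 0 with the mean ratio trend, 438 and 487 with array weights, and between 35 and 378 higher and 4 and 533 lower without 1 array. The numbers in the labels were not taken to pair arrays, since the deviations of same-numbered arrays correlated at 0.0125 and 0.0172. With the replicate block, which drops Dox replicate 3 from the contrast as it has no partner, 1 member was called higher and 0 lower (Scnn1g 3.91, adjusted p = 0.0347), and 435 and 484 of all probe sets. Array constants taken out and quantile normalization of recovered signals were chosen after seeing the data. Signals near background, as for Cftr 1427767_a_at, limit what can be read from a ratio.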
